A study of Homo sapiens with 15 samples.

Results

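dCBP-1 is a degrader of CBP and p300, and its effect on transcripts was described here in MM.1S cells, an established human multiple myeloma line in which MAF is joined to the immunoglobulin heavy chain locus. The members were 6 of the 15 libraries of the study: 3 from cells given dCBP-1 at 100 nM and 3 from cells given the vehicle DMSO, each for 6 h. They were picked by their labels, in a choice made with earlier results of these data known, and every gene tested was compared between them. The other libraries, 3 each of A-485, GNE-781 and A-485 with GNE-781 (the combination), had the same 6 h and 100 nM of each compound. They serve only to estimate the spread and for direct differences from dCBP-1. All cells carried unmodified CREBBP and EP300 as far as the labels say, and no group had the cereblon ligand of dCBP-1 by itself, so effects of that part of the molecule and of the loss of CBP and p300 cannot be told apart.

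CBP (gene CREBBP) and p300 (gene EP300) are paralogous coactivators that are brought to enhancers and promoters by transcription factors, where they acetylate histones and other proteins and bind acetylated lysines through a bromodomain. A-485 blocks the acetyltransferase site and GNE-781 the bromodomain. dCBP-1 couples a ligand of the bromodomain, like that of GNE-781, to a ligand of cereblon, the substrate receptor of an E3 ubiquitin ligase, so that both proteins are marked for the proteasome. Plasma cells, the normal counterpart of myeloma, keep their identity through factors such as IRF4, PRDM1 and XBP1, many of them driven by large enhancers. Only RNA was measured here, by sequencing of the 3′ ends of transcripts, so neither the loss of the 2 proteins nor acetylation was seen.

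Levels are normalized read counts, the deposited values, which do not scale with transcript length in this 3′ method. Recovered depth was 14985578 to 17306042 reads in the DMSO libraries and 13103114 to 18078838 in the dCBP-1 libraries. DMSO replicates 1 and 2 stood apart: the reads from mitochondrially encoded genes were 22.8% and 19.4% of the total there, 16.1% in DMSO replicate 3 and 14.2% to 14.9% with dCBP-1, and 16557 and 17585 genes had a read, against 19927 in DMSO replicate 3 and 19128 to 19357 with dCBP-1. Each result was therefore also fitted against DMSO replicate 3 alone, a fit in which that lone library is assumed to vary like the other groups. On the first principal component of all 15 libraries (59.7% of the variance) dCBP-1 lay at 32.8 to 42.9, replicate 3 farthest out, and DMSO at −26.2 to −32.1. The marker lists placed all 6 libraries with plasma cells: the summed level of 12 plasma cell markers was 83430.0 to 89550.0 in DMSO and 26600.0 to 28480.0 with dCBP-1. The summed level of the mature B cell markers was 214 to 257 in DMSO and 58.2 to 72.6 with dCBP-1, with 3 of 6 tested and 1 lower. T and NK cell markers summed to 22.1 to 65.4 in DMSO and 13.97 to 21.8 with dCBP-1 (3 tested, 1 lower), myeloid markers to at most 11.9 in any library (1 tested and higher, CD14) and stromal markers to at most 34.4 (3 tested, 1 higher). Of these markers, CD3D, NKG7, CSF1R, S100A8, FCGR3A, MPO, COL3A1 and LUM were at 0 in all 6 libraries. Other untested members of the same lists were low but not at 0. Their highest values were 12.1 for KLRD1, 3.16 for CD4, 2.43 for LYZ and COL1A2, 1.05 for S100A9 and 0.81 for CD8A. The part of other cell types in the results was not tested. Neither the part of DMSO replicates 1 and 2 nor that of the mitochondrial share in the results below was tested beyond the fit without those 2 libraries.

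With dCBP-1, 6092 of 16104 genes tested changed against DMSO (37.8%, limma adjusted p below 0.05), 3105 of them higher (19.3%) and 2987 lower (18.5%). Of these, 1197 rose and 1422 fell at least 2-fold, 398 and 444 at least 4-fold, and 13 and 26 at least 16-fold. The log2 fold changes ran from −8.17 for MYC to 6.00 for EGR1, with a median of 0.07 over all genes tested. For 7127 genes (44.3%) the 3 dCBP-1 libraries all lay on 1 side of the 3 DMSO libraries, 3510 above and 3617 below.

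**Figure D1:**
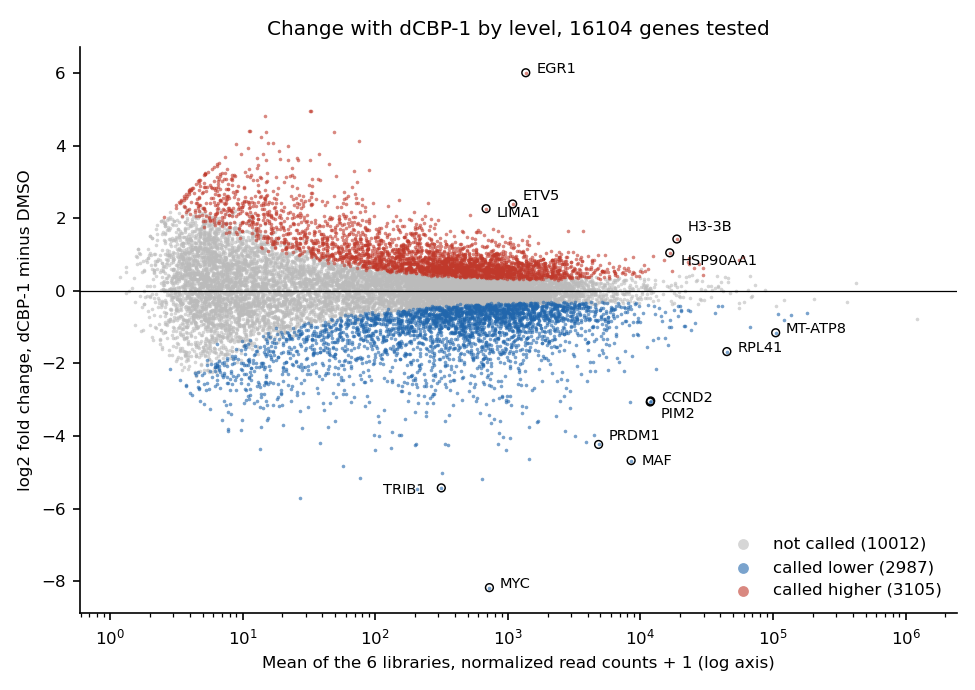
Log2 fold change of dCBP-1 minus DMSO (vertical axis) against the mean of the 6 libraries in normalized read counts plus 1 (horizontal log axis), 1 point for each of the 16104 genes tested, coloured by the limma call; circled genes are named. EGR1 at 6.00 and MYC at −8.17 lie farthest from 0 among the genes tested, and among the most abundant genes more are called lower than higher.

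The share of genes that fell grew with level. When genes were split into 5 bins of nearly equal size by level, 641 of 3221 in the top bin rose and 952 fell. In the middle bin 806 of 3220 rose and 668 fell, and in the lowest bin 253 of 3221 rose and 127 fell. Against DMSO replicate 3 alone the balance turned in the middle bin, with 376 rises and 538 falls, and was 90 and 86 in the lowest bin and 159 and 912 in the top bin. Genes called lower held 31.5% ± 0.662 of all normalized counts in DMSO (SD, n = 3) and 19.5% ± 1.76 with dCBP-1. The genes called higher went from 10.5% ± 1.01 to 19.2% ± 1.27. Both sets were defined by the call on these same libraries, so the direction of these 2 changes was fixed in advance. These percentages are parts of each library's total, so a fall in 1 set of genes raises the share of the rest, and less RNA per cell cannot be told apart from fewer cells. Of 12726 protein-coding genes tested, 2820 rose and 2618 fell, a balance that turned to 1148 and 2277 against DMSO replicate 3 alone. Of 494 long intergenic noncoding RNAs, 37 were called higher (7.49%) and 58 lower (11.7%). Of 686 antisense RNAs, 45 were called higher (6.56%) and 74 lower (10.8%). These shares were below the 19.3% and 18.5% of all genes tested. The median log2 fold changes of the 2 types were 0.004 and −0.052, and −0.377 and −0.325 against DMSO replicate 3 alone. Over all genes tested the medians of the 2 fits were 0.07 and −0.12. In the lowest bin of level they were 0.275 and −0.268.

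Against DMSO replicate 3 alone, 3788 genes were called (23.5%), 1248 higher (7.75%) and 2540 lower (15.8%). Of the 2987 genes called lower against all DMSO libraries, 2198 (73.6%) were also called lower there. The same held for 1143 of the 3105 called higher (36.8%). Among changes of at least 2-fold, 1164 of 1422 falls (81.9%) and 680 of 1197 rises (56.8%) were called in both fits. The sign was the same for 2983 of the falls and 3040 of the rises. The median over all genes tested moved to −0.12. Both fits hold the same dCBP-1 libraries, so the second is no independent test. The 15 largest rises and 15 largest falls named below were taken from genes called in both fits, with groups that do not overlap and a mean over the 6 libraries at or above the median of all genes tested (182 normalized read counts).

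**Figure D2:**
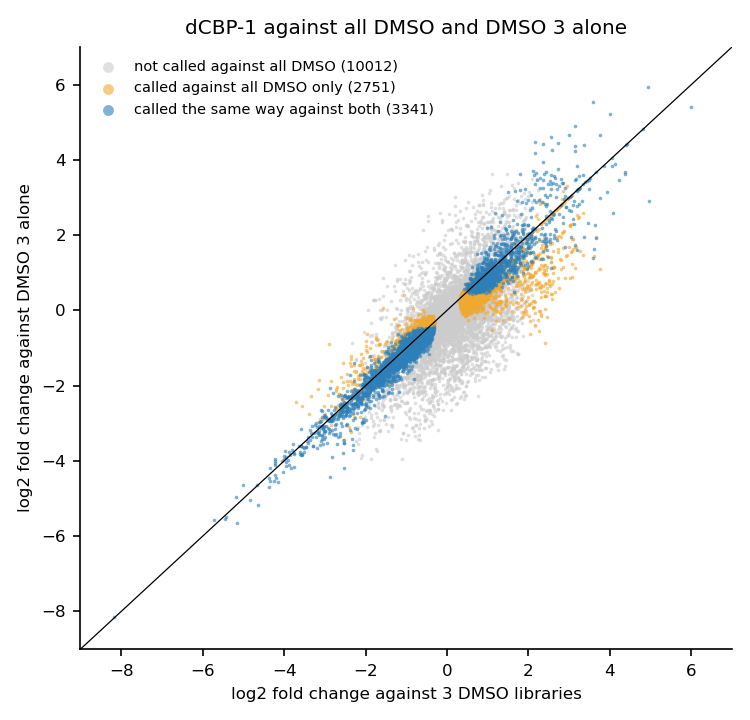
Log2 fold change of dCBP-1 against the 3 DMSO libraries (horizontal) and against DMSO replicate 3 alone (vertical) for each gene tested; the line marks equal values and colours show in which fit a gene was called. Falls lie near the line, while many rises lie below it, so that 36.8% of the genes called higher and 73.6% of those called lower were called in both fits.

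The transcript of CREBBP rose with dCBP-1, and that of EP300 passed the test only in some settings. CREBBP had 1314, 1081 and 1396 normalized read counts in DMSO replicates 1, 2 and 3 and 2204, 1989 and 2629.8 with dCBP-1. All 3 dCBP-1 libraries lay above all 3 DMSO libraries, and the log2 fold change was 0.85 ± 0.15 (SE; limma adjusted p = 2.9e-05), or 0.69 against DMSO replicate 3 alone (adjusted p = 0.011). EP300 had 1309.8, 1167 and 1102 in DMSO and 1419, 1342 and 2061 with dCBP-1. The groups did not overlap, but dCBP-1 replicate 3 was far above the other two. Its change of 0.41 ± 0.16 just passed the test (limma adjusted p = 0.049) and did not pass against DMSO replicate 3 alone (0.52, adjusted p = 0.11). Without dCBP-1 replicate 3 the change of EP300 was 0.21 (limma adjusted p = 0.352), and without DMSO replicate 2 or 3 it was 0.39 and 0.35 (adjusted p = 0.112 and 0.121). Among 18 acetyltransferases and CBP-binding proteins tested, 4 were called higher and 4 lower (median 0.03, and −0.30 against DMSO replicate 3 alone). CITED2, which binds the same domain of CBP and p300 as HIF, fell from 602 ± 91.9 to 144 ± 27.2 (−2.06 ± 0.26). The acetyltransferase KAT2B (PCAF) fell from 585 ± 66.0 to 276 ± 89.5 (−1.14 ± 0.22). NCOA1, a nuclear receptor coactivator that works with CBP, rose from 526 ± 78.6 to 883 ± 62.9 (0.75 ± 0.16), a call not made against DMSO replicate 3 alone (0.52, limma adjusted p = 0.09).

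EGR1, an immediate early zinc finger factor that responds to growth signals within minutes, rose most of all genes tested. It had 32.7, 33.7 and 61.9 normalized read counts in DMSO and 2662, 2609.8 and 2801 with dCBP-1. The dCBP-1 libraries lay close together and far above DMSO, of which replicate 3 was highest (log2 fold change 6.00 ± 0.24, limma adjusted p = 4.1e-18; 5.42 against DMSO replicate 3 alone). ETV5, an ETS factor downstream of ERK, had 320.0, 288 and 453 in DMSO and 1852, 1819 and 1798 with dCBP-1 (2.39 ± 0.16, adjusted p = 2.7e-13). SLC2A3, a glucose transporter, had 65.3, 63.3 and 108 and 399, 380.4 and 469.5 (2.42 ± 0.20). In these 3 genes no dCBP-1 library came near the DMSO range. Other named rises were LIMA1, which crosslinks actin (from 241 ± 63.1 to 1131 ± 60.4, 2.26 ± 0.17), the tropomyosin TPM1 (from 96.1 ± 47.1 to 375 ± 24.4, 2.05 ± 0.23) and APAF1, the scaffold of the apoptosome (from 80.0 ± 47.2 to 309 ± 62.3, 2.17 ± 0.33). For APAF1, DMSO replicate 1 at 25.9 was far below replicates 2 and 3 at 101 and 113, and the change was 1.42 against replicate 3 alone (limma adjusted p = 5.9e-04). The tau tubulin kinase TTBK2 (1.95 ± 0.18), the ESCRT subunit CHMP4C (1.80 ± 0.19) and PGM2L1, which makes glucose bisphosphate (1.79 ± 0.21), rose with small spread, and STRIP2, TCEAL9, ANKMY2, BMT2, IFFO1 and C1orf115 rose by 1.83 to 1.99. Rises of genes that were low in DMSO could be larger: SLC30A3, a zinc transporter went from 9.45 ± 8.05 to 141 ± 28.4 (4.12 ± 0.49), and DHRS2, a short-chain reductase, from 5.54 ± 5.29 to 90.4 ± 18.1 (4.38 ± 0.58), both named after their values were seen.

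The proximal promoter of EGR1 is printed because the gene rose most, with that of SRF, the factor that binds CArG boxes, and of FLNA and TPM4, actin-binding genes with such a box that fell. Bases are from RefSeq (GRCh38.p14), 5′ to 3′ on the strand of the gene and before its start, with CArG boxes in capitals. The EGR1 stretch is at chr5:138465349-138465478 (plus strand), SRF at chr6:43171209-43171268 (plus), FLNA at chrX:154374694-154374764 (minus) and TPM4 at chr19:16067338-16067398 (plus).
EGR1: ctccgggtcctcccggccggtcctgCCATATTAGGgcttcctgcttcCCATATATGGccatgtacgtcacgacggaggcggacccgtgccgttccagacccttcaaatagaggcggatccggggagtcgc
SRF: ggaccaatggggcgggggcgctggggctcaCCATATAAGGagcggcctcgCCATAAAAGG
FLNA: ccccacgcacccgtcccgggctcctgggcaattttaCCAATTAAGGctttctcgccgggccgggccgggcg
TPM4: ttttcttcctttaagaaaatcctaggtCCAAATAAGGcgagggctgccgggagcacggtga

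CArG boxes begin at −105 and −83 from the start in EGR1, at −30 and −10 in SRF, at −94 in FLNA and at −173 in TPM4. The motif was searched by name on both strands in windows of 300 bases, 250 before and 50 after the first start listed, and 1.29% of all 27305 RefSeq promoters in the table and 1.02% of the 11128 of genes tested hold it. SRF had 492, 564 and 804 normalized read counts in DMSO and 1112, 1116 and 2255 with dCBP-1 (1.21 ± 0.26, limma adjusted p = 3.5e-04). DMSO replicate 3 was nearest to the dCBP-1 libraries, and against it alone the change was 0.81 and not called (adjusted p = 0.11). FLNA, a filamin, fell from 2799 ± 204 to 1469.9 ± 275 (−0.94 ± 0.16) and TPM4, a tropomyosin, fell from 4006 ± 526 to 2017 ± 240.1 (−0.99 ± 0.14). These 3 were chosen after their values were seen. Of 32 actin cytoskeleton and SRF target genes tested, 6 rose and 8 fell (5 and 7 against DMSO replicate 3 alone), with a median of −0.15. Promoters of 28 of the 32 were in the table (87.5%), and 7 held a CArG box (25.0%). Of these 7, 1 rose and 3 fell, and of the other 21, 4 rose and 5 fell. The intermediate filament VIM (from 8508 ± 506 to 2435 ± 432, −1.82 ± 0.15) and the myosin heavy chain MYH9 (−1.04 ± 0.13) fell while LIMA1 and TPM1 rose.

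The largest falls took in transcription factors and feedback regulators of signalling. MYC had 1221, 1709.5 and 1413 normalized read counts in DMSO and 7.45, 5.65 and 1.19 with dCBP-1, which are 8, 7 and 1 reads (−8.17 ± 0.33, limma adjusted p = 4.2e-18). TRIB1, a pseudokinase that brings substrates to the COP1 ligase, had 664, 545 and 637 and 15.8, 11.3 and 13.04 (−5.43 ± 0.18). MAF, the translocated oncogene of this line, had 15296, 18021 and 15865 and 694, 751 and 502 (−4.67 ± 0.14). The dCBP-1 libraries of each of the 3 lay far below every DMSO library. PRDM1, the repressor that drives plasma cell differentiation, fell from 9190.1 ± 649 to 492 ± 77.8 (−4.23 ± 0.13), and RUNX2, a factor of bone-forming cells that myeloma cells also express, fell from 377 ± 67.2 to 18.7 ± 2.37 (−4.25 ± 0.22). The retinoic acid receptor RARA (from 1594 ± 363 to 85.8 ± 28.1, −4.23 ± 0.23) and CYP26A1, which degrades retinoic acid (from 1246 ± 171 to 34.5 ± 12.8, −5.19 ± 0.29), fell together. CCND1, a D cyclin, fell from 385 ± 55.9 to 20.02 ± 5.50 (−4.22 ± 0.21), and RND3, a small GTP-binding protein, from 677 ± 58.6 to 35.5 ± 7.81 (−4.23 ± 0.17).

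TENT5C, a poly(A) polymerase that stabilizes secretory transcripts and is often mutated in myeloma, fell from 7417 ± 1876 to 407 ± 40.4 (−4.16 ± 0.16). DEPTOR, an inhibitor of mTOR, fell from 1957 ± 195 to 119 ± 28.1 (−4.05 ± 0.17). ZBP1, a sensor of Z-form nucleic acid, fell from 633 ± 171 to 32.6 ± 7.73 (−4.23 ± 0.21). DMSO replicate 3 was the highest DMSO library for DUSP5, DUSP4, RUNX2 and TENT5C and the lowest for CYP26A1, SPRY1 and CCND1, so that their change against it alone was −5.16, −4.70, −4.53 and −4.56 for the first 4 and −4.96, −4.65 and −4.06 for the last 3.

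**Figure D3:**
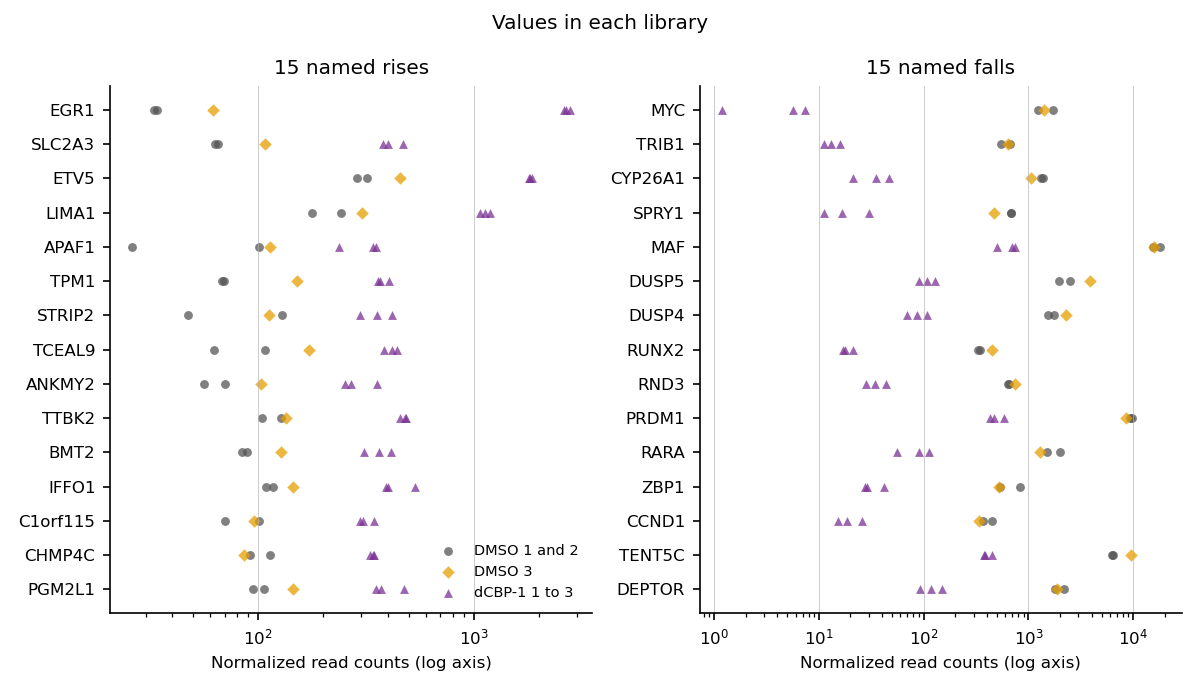
Normalized read counts (log axes) of the 15 largest rises and the 15 largest falls with dCBP-1 among genes at or above the median level and called in both fits, 1 point for each library: DMSO replicates 1 and 2 (circles), DMSO replicate 3 (diamonds) and dCBP-1 replicates 1 to 3 (triangles). The genes were also chosen so that the dCBP-1 libraries lie on 1 side of all DMSO libraries, as for 44.3% of all genes tested. EGR1 and MYC have the widest gaps, and DMSO replicate 3 is the DMSO library nearest to dCBP-1 in most of the rises.

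Very abundant transcripts changed as well. CCND2, the D cyclin that MAF is known to raise, had 20810.0, 21315 and 21401 normalized read counts in DMSO and 2301, 2319.8 and 3060.2 with dCBP-1 (−3.06 ± 0.15). PIM2, a survival kinase of plasma cells, had 15864, 18731 and 29614 and 2559, 2490.2 and 2516 (−3.03 ± 0.17), with DMSO replicate 3 well above the other DMSO libraries. CHMP4B, an ESCRT subunit, fell from 21339 ± 1603 to 4779.7 ± 694 (−2.17 ± 0.14), ANKRD12, an ankyrin repeat corepressor, from 21832 ± 2018 to 8999 ± 1586 (−1.29 ± 0.16), and PABPC1, the cytoplasmic poly(A)-binding protein, from 32314 ± 3603 to 15631 ± 3526 (−1.07 ± 0.20). RPL41, a ribosomal protein gene with near-identical copies, fell from 67953 ± 10038 to 21901 ± 6746 (−1.67 ± 0.19), lowest in dCBP-1 replicate 3. The mitochondrial MT-ATP8 (−1.16 ± 0.20) and MT-TL1 (−1.50 ± 0.19) also fell; both overlap or adjoin other mitochondrial genes, and the mitochondrial share itself differed between DMSO libraries. Among abundant rises, H3-3B, which encodes histone H3.3, had 9169, 9356 and 12376 and 28007, 27326 and 26921 (1.43 ± 0.14). HSP90AA1, a cytosolic chaperone, had 10333, 9531 and 12392 and 19435, 18756 and 29515 (1.05 ± 0.16), highest in dCBP-1 replicate 3. DNAJB1, a cochaperone of HSP70 (1.02 ± 0.14), the replication checkpoint mediator CLSPN (1.06 ± 0.16), LARP7, which holds P-TEFb in its inactive particle (1.06 ± 0.15), the splicing factor SLU7 (1.07 ± 0.16), the centrin CETN3 (1.64 ± 0.25) and BEX5 (1.65 ± 0.17) rose. CETN3 was 2926 in DMSO replicate 3 against 765 and 1034 in the other two, and its change against replicate 3 alone was 0.49.

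The lists below are described by the members called, against the 19.3% of all genes called higher and the 18.5% called lower. Their median log2 fold change is set against 0.07 for all genes (−0.12 against DMSO replicate 3 alone). Over all genes, too, fewer rises were called against DMSO replicate 3 alone. Counts of list members in that fit are read against its shares given above. Under quantile normalization 3807 of all genes tested were called higher and 2978 lower. Members named are mainly those with the smallest p, so they need not show the balance of their list. Among genes of the transcription machinery, the 25 BET proteins and elongation factors had 7 rises and 7 falls (median 0.09), and 2 and 7 against DMSO replicate 3 alone. The falls included the super elongation complex members ELL (from 879.7 ± 129.8 to 343 ± 17.0, −1.35 ± 0.14) and AFF1 (−1.20 ± 0.16). The scaffold AFF4, a paralog of AFF1, rose from 784 ± 109 to 1488 ± 112 (0.93 ± 0.14), as did LARP7. Of 43 Mediator and RNA polymerase II subunits, 16 rose and 4 fell (median 0.08, and 0.004 against DMSO replicate 3 alone). POLR2C, a core subunit of the polymerase, rose from 564 ± 43.3 to 1116 ± 184 (0.97 ± 0.15), and MED13L, of the Mediator kinase module, fell from 1356 ± 150.4 to 727 ± 107 (−0.90 ± 0.14). MED1 (0.71 ± 0.13) and MED16 (−0.93 ± 0.17) were called only in the fit with all DMSO libraries.

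Chromatin enzymes moved both ways, as did all genes tested. Of 46 polycomb and histone methylation genes, 11 rose and 8 fell (median 0.14; 4 and 7 against DMSO replicate 3 alone, 17 and 7 under quantile normalization). CBX6, a reader of polycomb-marked histones, fell from 8033 ± 2238 to 3108 ± 118 (−1.34 ± 0.15), as did DOT1L (−1.12 ± 0.14), the methyltransferase of the histone H3 core, and the demethylase KDM2A (−0.76 ± 0.12), while the demethylase KDM5A rose from 2313 ± 383 to 4226 ± 419.7 (0.88 ± 0.13). Of 21 SR splicing factors and their kinases, 2 rose and 3 fell, with 1 and 4 against DMSO replicate 3 alone. These counts moved with the scaling, to 5 and 6 under TMM and median-ratio factors and 9 and 2 under quantile normalization. SRSF7 (from 4191 ± 178 to 2289 ± 207, −0.88 ± 0.14) and SRSF2 (−0.77 ± 0.13) fell, and the kinase CLK2 (0.46 ± 0.13) and SRSF11 (0.54 ± 0.14) rose, SRSF11 without a call against DMSO replicate 3 alone (0.45, limma adjusted p = 0.078). Among 20 genes of the cereblon ligase and of proteins that cereblon ligands are known to recruit, 4 rose and 9 fell (median −0.24). CRBN, cereblon itself, named for the compound's mode of action, had 554, 584 and 591 in DMSO and 577, 518 and 493 with dCBP-1 and did not pass the test (−0.13 ± 0.14, interval of the difference −0.41 to 0.16). IKZF3 (Aiolos) fell from 474 ± 119 to 62.3 ± 7.73 (−2.88 ± 0.19), IKZF1 (Ikaros) from 1620.2 ± 327 to 822 ± 59.97 (−0.96 ± 0.14), the translation termination factor GSPT1 from 6258 ± 833 to 3114 ± 168 (−1.0 ± 0.12) and the chromatin remodeller subunit ARID2 from 1578 ± 63.3 to 940.4 ± 64.2 (−0.75 ± 0.12). 

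Genes that respond to ERK signalling split. Of 23 ERK phosphatases and feedback inhibitors, 11 fell and 0 rose (median −0.89; 10 lower against DMSO replicate 3 alone). DUSP5, a nuclear phosphatase of ERK, had 1974, 2505 and 3866 normalized read counts in DMSO and 128, 107 and 90.1 with dCBP-1, and DUSP4, its paralog, 1541, 1740.1 and 2275 and 86.6, 107 and 70.0. SPRY1, a Sprouty inhibitor of receptor signalling, had 681, 683 and 472 and 29.8, 11.3 and 16.6. All dCBP-1 libraries of these genes lay far below all DMSO libraries. Of 18 ETS factors, 2 rose and 7 fell (median −0.20). ELK3 (from 1666 ± 179.9 to 398 ± 62.9, −2.07 ± 0.14), FLI1 (−1.88 ± 0.15) and ETS1 (−1.83 ± 0.20), which act in lymphoid and endothelial cells, fell. The 2 rises were ETV5 and ETV1, the latter named after its values were seen (from 4.62 ± 3.10 to 24.4 ± 4.34, 2.38 ± 0.54); with ETV4, which was near the floor and not called (from 1.53 ± 1.89 to 6.80 ± 3.94), they form the PEA3 subfamily of ERK-responsive ETS factors. AP-1 members were called in both directions, 4 higher and 4 lower of 14. FOS rose from 74.2 ± 10.0 to 191 ± 41.4 (1.33 ± 0.27), and JUN rose by 0.72 ± 0.14 against all DMSO libraries but was not called against DMSO replicate 3 alone (0.48, limma adjusted p = 0.063). FOSL2 (from 217 ± 52.0 to 101 ± 25.4, −1.11 ± 0.21) and the small MAF protein MAFF (−1.12 ± 0.19) fell. Of 21 KLF and SP factors, 11 fell and 2 rose (median −0.86; 11 lower against DMSO replicate 3 alone). KLF13 fell from 5048 ± 773 to 345 ± 45.7 (−3.87 ± 0.15), KLF6 from 2586 ± 493 to 814 ± 75.7 (−1.65 ± 0.13), KLF2, a regulator of lymphocyte homing, from 496 ± 81.2 to 85.8 ± 19.3 (−2.53 ± 0.22), and KLF16 from 612 ± 105 to 164 ± 13.5 (−1.88 ± 0.17).

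Lineage genes fell widely. Of the 12 plasma cell markers, 10 fell and 0 rose in both fits, with a median of −2.03. TNFRSF17, the B cell maturation antigen, had 5714, 6948 and 5409 normalized read counts in DMSO and 356, 445 and 324 with dCBP-1 (−4.01 ± 0.15), and POU2AF1, the coactivator of octamer-binding factors, 2517, 2565 and 3147 and 453, 475 and 364 (−2.67 ± 0.15). In both genes every dCBP-1 library was far below every DMSO library. The 2 markers that did not pass were JCHAIN, which joins secreted antibody units (from 19624 ± 989 to 15322 ± 347, limma adjusted p = 0.062), and the low FCRL5 (from 15.7 ± 10.6 to 7.88 ± 3.67). BACH2, a B cell factor that plasma cells turn down, fell from 222 ± 21.8 to 58.2 ± 1.98 (−1.91 ± 0.20), and of the 3 B cell markers tested 0 rose. Of 27 B cell receptor signalling genes, 13 fell and 2 rose (median −0.73; 13 and 2 against DMSO replicate 3 alone). The phosphatase PTPN6 (from 1186 ± 159 to 238 ± 29.2, −2.31 ± 0.15), the adaptor BLNK (from 542 ± 41.5 to 128 ± 7.05, −2.07 ± 0.18), the Ras activator RASGRP3 (−1.95 ± 0.13) and the paracaspase MALT1 (−1.22 ± 0.14) fell. The 2 rises, named after their values were seen, were PIK3CD, a PI3 kinase subunit (from 27.4 ± 9.14 to 113 ± 33.9, 2.02 ± 0.32), and RASGRP1 (from 22.4 ± 7.22 to 62.9 ± 13.5, 1.48 ± 0.34).

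Receptors and adhesion molecules that guide plasma cells to the marrow fell widely. Of 23 chemokine receptor and homing genes, 15 fell and 2 rose (median −1.22; 14 and 0 against DMSO replicate 3 alone). CXCR4, the receptor for CXCL12 in the marrow, had 527, 436 and 549 in DMSO and 115, 116 and 94.9 with dCBP-1 (−2.20 ± 0.16). CCR1 fell from 8370.5 ± 913 to 538 ± 70.8 (−3.96 ± 0.13), ITGA4, the integrin chain of the VCAM1 receptor, from 1243 ± 168 to 261 ± 44.0 (−2.25 ± 0.16), and the focal adhesion kinase relative PTK2B from 6669 ± 259.9 to 1193 ± 139.9 (−2.49 ± 0.13). Of 7 class IIa deacetylases and MEF2 factors, 5 fell in both fits (median −0.80). HDAC9 (from 479 ± 43.2 to 66.1 ± 9.06, −2.84 ± 0.19), HDAC4 (−1.42 ± 0.21) and HDAC5 (−0.80 ± 0.16) fell along with their partner MEF2C (from 11044 ± 2294 to 2818 ± 268, −1.95 ± 0.14).

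The secretory apparatus changed in part. Of 24 antibody assembly genes, 14 fell and 3 rose (median −0.49; 14 and 2 against DMSO replicate 3 alone). XBP1, the factor that expands the secretory pathway, fell from 10343 ± 554 to 2893 ± 316 (−1.84 ± 0.13), and HERPUD1, of the degradation pathway of the endoplasmic reticulum, from 9247 ± 531 to 2093 ± 547 (−2.18 ± 0.17). The 3 rises, named after their values were seen, were the chaperone HSPA5 (BiP; from 16836 ± 3051 to 29011 ± 1209, 0.80 ± 0.14), TENT5A, a paralog of TENT5C (from 257 ± 18.4 to 429.6 ± 42.3, 0.74 ± 0.15), and CRELD2 (0.59 ± 0.13), the last not called against DMSO replicate 3 alone. TENT5C and TENT5A thus changed in opposite directions. Of 51 genes for translocation and transport, 7 rose and 9 fell (median −0.03), and 2 and 8 against DMSO replicate 3 alone. Under quantile normalization the balance turned to 16 rises and 7 falls, with a median of 0.09. The coatomer subunit COPE (from 2772 ± 617 to 1265 ± 149.6, −1.11 ± 0.16) and the signal peptidase subunit SPCS1 (−0.80 ± 0.14) fell. The coatomer subunit COPB1 rose from 1704 ± 65.0 to 2838 ± 191 (0.73 ± 0.14), and SEC23B, of the COPII coat, by 0.74 ± 0.15, the latter not called against DMSO replicate 3 alone (0.43).

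Some receptors, kinases and feedback inhibitors of signals from the marrow niche fell, though most members of each list below did not. Of 28 genes of IL-6, JAK and STAT3 signalling, 10 fell and 6 rose (median −0.27; 10 and 1 against DMSO replicate 3 alone). IL6R, the receptor for the myeloma growth factor IL-6, had 4360.0, 3843 and 5881 normalized read counts in DMSO and 654, 594 and 606 with dCBP-1 (−2.90 ± 0.14). PIM1, a kinase and STAT target, fell from 1514 ± 122 to 249.6 ± 58.9 (−2.62 ± 0.19), and the receptor IL10RA from 1689.8 ± 287 to 384 ± 68.0 (−2.13 ± 0.14). Of 28 NF-kB subunits and regulators, 11 fell and 2 rose (median −0.23, and −0.59 against DMSO replicate 3 alone). The ubiquitin editing inhibitor TNFAIP3 (A20) fell from 2320.0 ± 169 to 259.6 ± 47.2 (−3.17 ± 0.15), BIRC3, a ligase that restrains the pathway and caspases, from 2161 ± 292 to 355 ± 36.6 (−2.60 ± 0.14), the precursor subunit NFKB2 from 1998 ± 364 to 485.4 ± 29.05 (−2.02 ± 0.15) and TRAF3, which inhibits the noncanonical branch, from 630.0 ± 21.6 to 292 ± 17.2 (−1.11 ± 0.16). Of 23 Notch pathway genes, 8 fell and 5 rose (median −0.45; 7 and 1 against DMSO replicate 3 alone). The target genes HES1 (from 655 ± 37.1 to 60.4 ± 7.33, −3.42 ± 0.20) and HES6 (−1.55 ± 0.14), the receptor NOTCH2 (−1.87 ± 0.18) and MAML2 (−1.69 ± 0.17), a coactivator that brings p300 to Notch targets, fell.

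Among 30 SMAD pathway genes, 11 fell and 4 rose, with a median of 0.01 that turned to −0.04 under quantile normalization. Against DMSO replicate 3 alone it was −0.29. The inhibitors SMAD7 (from 403 ± 49.8 to 64.7 ± 13.9, −2.63 ± 0.23) and SKIL (−1.18 ± 0.14), the target ID2 (from 855 ± 106 to 232 ± 17.97, −1.87 ± 0.15) and the ligand BMP6 (−1.23 ± 0.16) fell. Of 22 circadian clock genes, 11 fell and 3 rose (median −0.46; 8 and 1 against DMSO replicate 3 alone). The repressor BHLHE41 (DEC2) had 1816, 1878 and 1959 in DMSO and 212, 221 and 207 with dCBP-1 (−3.14 ± 0.14). PER2 (from 349 ± 83.1 to 75.2 ± 5.16, −2.17 ± 0.20), the repressor NFIL3 (−2.35 ± 0.14) and the kinase CSNK1E (−1.33 ± 0.12) fell, while the activators BMAL1 (0.10 ± 0.21) and CLOCK (−0.05 ± 0.14) did not pass the test. Retinoic acid genes gave 3 rises and 4 falls of 14 (median −0.03, and 0.29 against DMSO replicate 3 alone). Beside RARA and CYP26A1, the receptor RARG fell (from 73.9 ± 25.2 to 31.1 ± 6.30, −1.18 ± 0.30) and the retinal reductase RDH11 rose (from 562 ± 101 to 1058 ± 156, 0.92 ± 0.17).

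Interferon genes moved both ways, 11 higher and 13 lower of 42 (median −0.18; 4 and 13 against DMSO replicate 3 alone). The factors IRF2 (from 1026 ± 217 to 235 ± 37.7, −2.11 ± 0.16) and IRF1 (from 2227 ± 258 to 1025 ± 93.8, −1.12 ± 0.13), the nuclease ISG20 (−1.11 ± 0.13) and IFIT5 (−1.79 ± 0.23) fell. Of 13 MHC class II genes, 6 fell and 0 rose (median −0.40). Their master coactivator CIITA had 224, 240.4 and 280.4 in DMSO and 20.5, 11.3 and 5.93 with dCBP-1 (−4.34 ± 0.29), far below in each library. The class II chain HLA-DRA (from 12102 ± 996 to 6667 ± 572, −0.86 ± 0.15) and the invariant chain CD74 (from 21088 ± 1385 to 14585 ± 1323, −0.53 ± 0.14) fell by less, as did RFX5 (−0.60 ± 0.17). Of 19 MHC class I genes, 3 fell and 0 rose (median −0.10), and under quantile normalization 2 fell and 3 rose (median 0.10). B2M, the shared light chain, fell from 44343 ± 4027 to 28989 ± 4151 (−0.62 ± 0.18). Reads of the polymorphic HLA genes may be split between near-identical copies.

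The lists were chosen with earlier results of these data known. Ribosome biogenesis is the making and processing of ribosomal RNA in the nucleolus. Other than the plasma cell markers, no list had so large a share of falls as this one. Of 61 genes tested, 49 fell and 1 rose (median −0.75), and 48 fell and 0 rose against DMSO replicate 3 alone (median −0.96). PPAN, which shares exons with a readthrough transcript, had 906, 983 and 782 normalized read counts in DMSO and 134, 135 and 123 with dCBP-1 (−2.75 ± 0.17). WDR43, of the small subunit processome, had 4247, 4898 and 5266 and 1352, 1352 and 1646 (−1.73 ± 0.13). The groups lay far apart in both genes. RRP9 (from 812 ± 59.9 to 243 ± 23.4, −1.74 ± 0.14) and WDR3 (from 1027 ± 176 to 285 ± 51.9, −1.85 ± 0.16), of the same machinery, fell too. The 1 rise was the RNA helicase DDX27, named after its value was seen (from 2192 ± 545 to 3216 ± 633, 0.56 ± 0.15), not called against DMSO replicate 3 alone (0.17).

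Stretches of the promoters of UTP20 and UTP18, processome genes that fell with an E-box near the start, are printed because MYC and its partner MAX bind this motif. They were chosen after values and sequences were seen, come from RefSeq (GRCh38.p14, plus strand, before the start, chr12:101280045-101280104 and chr17:51260426-51260486) and have the E-box in capitals.
UTP20: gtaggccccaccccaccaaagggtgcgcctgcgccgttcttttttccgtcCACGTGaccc
UTP18: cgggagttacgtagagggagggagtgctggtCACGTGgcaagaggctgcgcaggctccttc

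UTP20 fell from 1959 ± 230.2 to 783 ± 116 (−1.33 ± 0.14) and UTP18 from 1005 ± 232 to 599.6 ± 28.0 (−0.72 ± 0.15). The motif searched was CACGTG, which reads the same on both strands, in windows of 300 bases. It was in 17 of the 52 ribosome biogenesis promoters in the table (32.7%), and 85.2% of the 61 genes tested had an entry. The share was 9.97% of the 11128 promoters of genes tested and 7.43% of all 27305 RefSeq promoters. Of the 17 genes with an E-box in the window, 13 fell and 0 rose, with a median of −0.72. Of the 35 without one, 28 fell and 1 rose, with a median of −0.73. No difference between genes with and without the motif was tested. Over all genes tested, 69.1% had a promoter in the table, so a comparison of motif shares between all genes that rose and fell is void and supports nothing.

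Other lists of protein synthesis and turnover held smaller shares of falls. Of 79 cytosolic ribosomal protein genes, 11 rose and 11 fell (median 0.10), which TMM moved to 19 and 14 and quantile normalization to 32 and 10, and 0 rose and 7 fell against DMSO replicate 3 alone (median −0.05). RPS12 (0.94 ± 0.23) and RPL34 (0.84 ± 0.18) were called higher only with all DMSO libraries. Many of these genes have near-identical pseudogenes, so their values are uncertain. Of 20 aminoacyl tRNA synthetases, 7 fell and 3 rose, with a median of −0.07 (−0.27 against DMSO replicate 3 alone). Under quantile normalization 6 fell and 8 rose, with a median of 0.03. VARS1 (from 2397 ± 142 to 1062 ± 35.6, −1.17 ± 0.12), FARSA (−1.20 ± 0.13) and IARS1 (−0.91 ± 0.16) fell and MARS1 rose (from 1119.6 ± 77.1 to 2036 ± 692, 0.81 ± 0.17). Proteasome subunits gave 12 rises and 5 falls of 37 (median 0.19), but 1 and 1 against DMSO replicate 3 alone (median 0.04) and 16 and 1 under quantile normalization. PSMC1, for example, had 351, 306 and 1306 in DMSO and 1418, 1421 and 1414 with dCBP-1. DMSO replicate 3 lay well above the other DMSO libraries, and the change of 1.45 ± 0.27 became 0.12 against it alone. Heat shock chaperones gave 8 rises and 6 falls of 31 (7 and 5 against DMSO replicate 3 alone, 12 and 4 under quantile normalization). HSF2, a heat shock factor, rose from 483 ± 142 to 1332 ± 89.0 (1.502 ± 0.16) along with HSP90AA1 and DNAJB1, and STIP1, a cochaperone, fell from 7105 ± 909 to 3456 ± 612 (−1.05 ± 0.14).

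Cell cycle genes moved both ways. Of 12 D cyclins, kinases and inhibitors, 7 fell and 3 rose (median −0.54, and −0.55 against DMSO replicate 3 alone). CDK6, the kinase partner of D cyclins, had 3435, 3731 and 4849 in DMSO and 803, 742 and 590.5 with dCBP-1 (−2.49 ± 0.15), falling with CCND1 and CCND2, and the inhibitor CDKN2D rose from 299 ± 23.9 to 599 ± 98.1 (0.99 ± 0.16). Of 56 genes of G1/S and DNA replication, 16 rose and 5 fell (median 0.11; 6 and 5 against DMSO replicate 3 alone, 26 and 5 under quantile normalization). RRM1, the large subunit of ribonucleotide reductase, rose from 3686 ± 914 to 7184 ± 430.1 (0.99 ± 0.14), and CHAF1B, a chromatin assembly subunit, by 0.81 ± 0.15, while E2F2 fell from 1982 ± 439.9 to 969 ± 62.6 (−1.01 ± 0.14). RFC4, a clamp loader subunit (0.98 ± 0.17), was called only with all DMSO libraries.

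Stress and metabolic lists were mixed. Of 29 ATF4 amino acid stress genes, 9 rose and 13 fell (median −0.37, and −0.49 against DMSO replicate 3 alone). The importer SLC7A5 (from 1987 ± 119 to 446 ± 100.2, −2.18 ± 0.17) and the factor CEBPB (−1.21 ± 0.16) fell, whereas ASNS, asparagine synthetase (from 776 ± 237 to 1653 ± 383, 1.11 ± 0.17), and CTH, which makes cysteine (from 29.3 ± 18.8 to 135 ± 27.4, 2.31 ± 0.34), rose. ATF4 itself had 4730.0, 4898 and 8265 and 6296, 6171 and 7940.5 and did not pass (0.23 ± 0.16), with DMSO replicate 3 above the first 2. Of 28 genes of p53 and its targets, 7 rose and 9 fell (median −0.12), with falls in TP53INP1 (from 959.9 ± 60.9 to 154 ± 10.9, −2.64 ± 0.16), BTG2 (−1.66 ± 0.15), AEN (−1.61 ± 0.17) and PLK2 (−1.57 ± 0.23). SREBP factors and cholesterol synthesis genes gave 10 rises and 9 falls of 33 (4 and 9 against DMSO replicate 3 alone). The factor SREBF1 (from 1762 ± 58.8 to 639 ± 121, −1.48 ± 0.17) fell, and the sterol reductase TM7SF2 (from 298 ± 65.3 to 689.6 ± 8.56, 1.23 ± 0.17) and the thiolase ACAT2 (1.16 ± 0.17) rose. Of 35 HIF target and glycolysis genes, 15 fell and 5 rose (median −0.23), with falls in VEGFA, an angiogenic ligand (from 618 ± 24.5 to 224 ± 49.3, −1.49 ± 0.17), PDK1 (−1.26 ± 0.14), a kinase that inhibits pyruvate dehydrogenase, and ANKRD37 (−2.52 ± 0.23). SLC2A3, in the same list, rose.

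Of 28 death receptors, caspases and their inhibitors, 6 rose and 8 fell, with a median of −0.04 that turned to 0.03 under quantile normalization. Against DMSO replicate 3 alone it was −0.34. CASP8, the initiator of death receptor signalling (from 1568 ± 78.3 to 494 ± 59.7, −1.67 ± 0.20), and its inhibitor CFLAR (from 2799.5 ± 140.2 to 1125 ± 5.79, −1.31 ± 0.12) fell, while APAF1 rose. Nuclear noncoding RNAs had 2 rises and 6 falls of 21 (median −0.31, and −0.22 against DMSO replicate 3 alone). MIR17HG, the host transcript of a miRNA cluster, had 69.2, 60.1 and 89.8 and 11.2, 3.23 and 7.11 (−3.29 ± 0.34), and PVT1, the neighbour of MYC, fell from 733 ± 62.0 to 309.6 ± 24.1 (−1.24 ± 0.15), as did the small nucleolar RNA hosts SNHG15 (−1.61 ± 0.21) and SNHG16 (−0.70 ± 0.13). Of 450 tested genes with a ZNF symbol, mostly zinc finger factors, 121 rose and 35 fell (median 0.38), with 47 and 28 and a median of 0.16 against DMSO replicate 3 alone. At least 2-fold, 57 rose and 13 fell. The ZNF genes named here all fell, although most called members of the list rose. They were ZNF296 (from 1128 ± 128 to 109 ± 23.3, −3.37 ± 0.18) and ZNF521 (from 388 ± 53.6 to 79.0 ± 8.76, −2.28 ± 0.18), a factor of blood progenitors. ZNF703 (−1.47 ± 0.15) and ZNF598, a sensor of collided ribosomes (−1.32 ± 0.14), were the others. Of 15 mitochondrially encoded genes, 6 fell and 0 rose (median −0.47; 5 and 0 against DMSO replicate 3 alone, 4 and 2 under quantile normalization), among them the ribosomal RNA MT-RNR1 (−0.98 ± 0.17) and the complex I subunits MT-ND4L (−0.88 ± 0.16) and MT-ND5 (−0.81 ± 0.21), beside the mitochondrial shares given above.

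**Figure D4:**
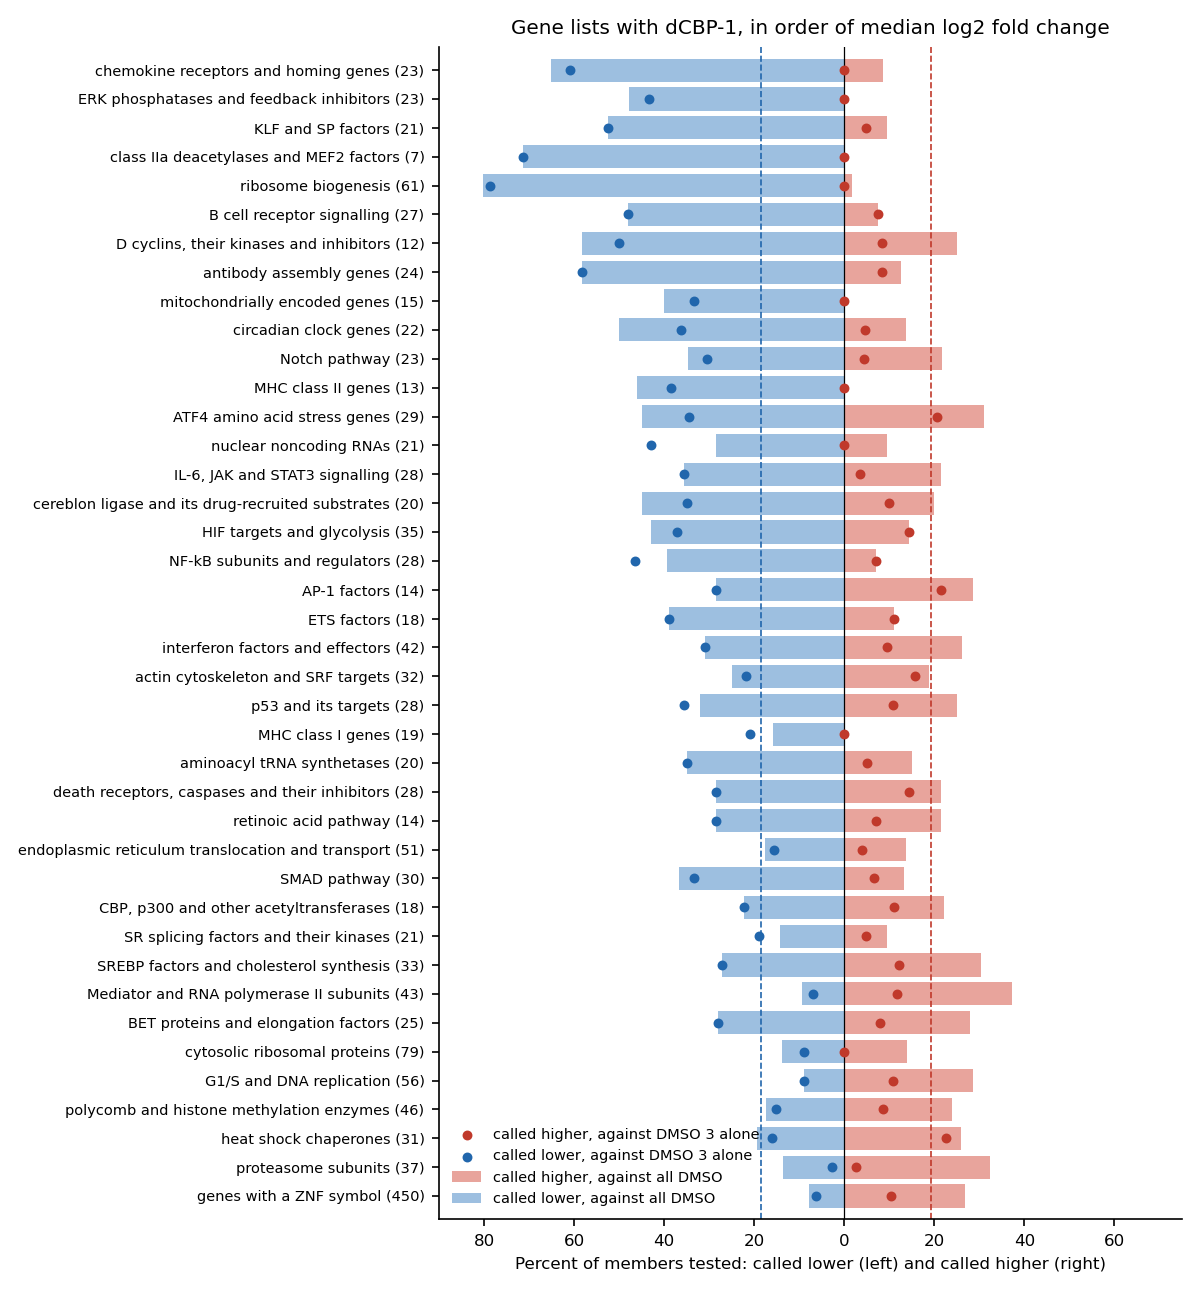
Percent of tested members called lower (bars to the left) and higher (bars to the right) with dCBP-1 against all DMSO libraries, for each gene list in order of its median log2 fold change, with the number of members tested in brackets; dots give the same against DMSO replicate 3 alone and dashed lines the shares of all genes tested, 18.5% lower and 19.3% higher. Ribosome biogenesis has the longest bar to the left (49 of 61), and in most lists the dots for rises lie far inside their bars while those for falls lie near the ends.

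dCBP-1 was set directly against the combination and GNE-781, which shares its bromodomain ligand type, at matched dose and time. DMSO libraries enter these differences only through the shared spread. Against the combination 993 genes were called (6.17%), 89 higher and 904 lower with dCBP-1, and against GNE-781 1500 (9.31%), 352 higher and 1148 lower. The counts of higher genes moved with the processing: against the combination TMM gave 337 higher and 1025 lower, median-ratio factors 330 and 1043 and quantile normalization 499 and 987, and leaving out dCBP-1 replicate 1 left 33 higher, replicate 2 43 and combination replicate 1 39. Against GNE-781 the 3 scalings gave 720 and 1408, 703 and 1414, and 1017 and 1327, and leaving out any 1 library left 135 to 214 higher. TRIB1 had 822, 736 and 610.5 normalized read counts with A-485, 542, 435 and 399 with GNE-781, 498, 688 and 529.6 with the combination and 15.8, 11.3 and 13.04 with dCBP-1. All 9 inhibitor libraries lay near the DMSO range, and dCBP-1 far below (difference from the combination −5.31 ± 0.18, limma adjusted p = 4.2e-19). DUSP5 had 1453, 1601 and 1824 with the combination (−3.91 ± 0.17), RND3 458, 463 and 463 (−3.69 ± 0.17) and DUSP4 837, 903 and 1259 (−3.49 ± 0.17). For TENT5C the combination gave 3737, 4467 and 5743, and the difference was −3.49 ± 0.16. MYC, already lower with the combination (162, 229.8 and 412), differed by −5.65 ± 0.33. These 6 genes were picked as the largest falls from the combination among called genes at or above the median level. That all their dCBP-1 libraries lay below all combination libraries was therefore all but fixed by the choice.

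Higher with dCBP-1 than with the combination were EGR1 (416, 320.3 and 282 with the combination, a difference of 3.002 ± 0.24), ETV5 (701, 823 and 725, 1.28 ± 0.16), SLC2A3 (1.02 ± 0.20), the immediate early gene IER2 (1.09 ± 0.23) and MXD1, a MAX partner that opposes MYC (1.02 ± 0.17). CHAC1, an ATF4 target that breaks down glutathione, had 414, 348 and 405 in DMSO, 281, 250.1 and 251 with the combination and 656, 675 and 653 with dCBP-1. The combination lay below DMSO and dCBP-1 above it, and the direct difference was 1.34 ± 0.15 (limma adjusted p = 1.0e-07). For CREBBP and EP300 the difference from the combination was 0.26 ± 0.15 (interval −0.04 to 0.56) and 0.03 ± 0.16 (interval −0.31 to 0.36), and neither was called. Such intervals do not show that the treatments act alike. How far each compound engaged its target was not measured, so loss of the proteins and fuller blockade at this dose cannot be told apart.

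**Figure D5:**
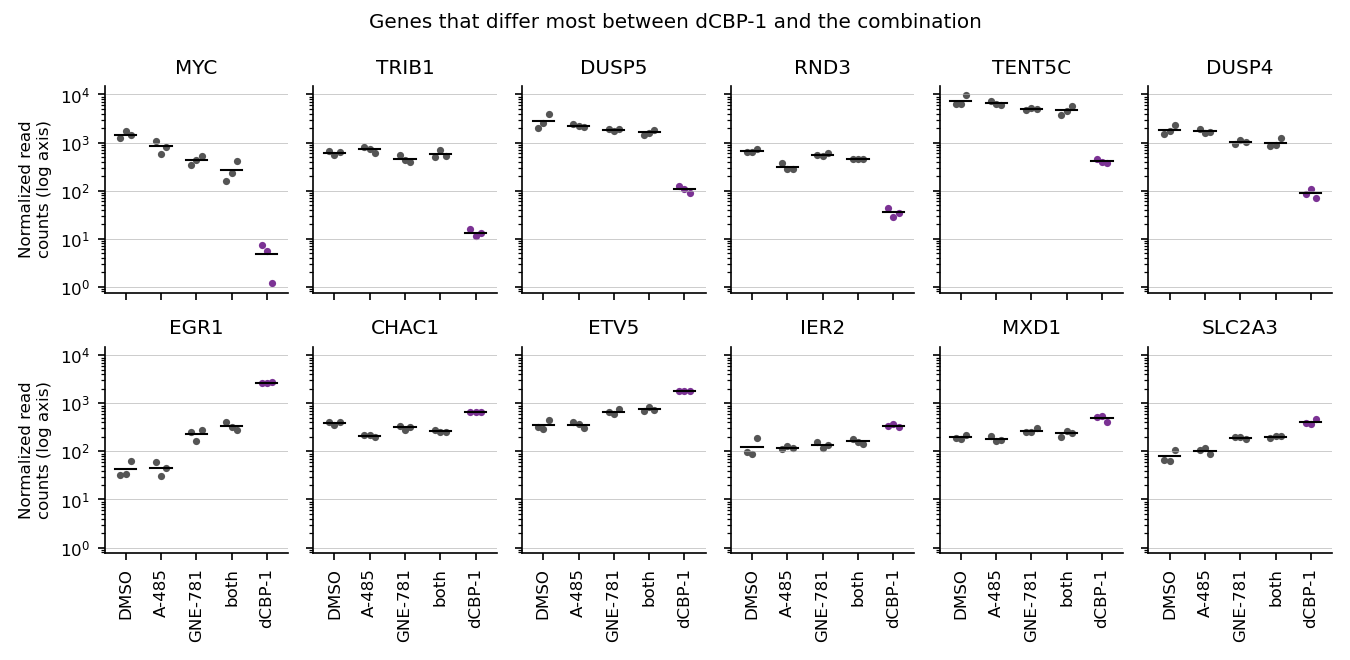
Normalized read counts (log axis) of the 6 genes most lowered (top) and the 6 most raised (bottom) with dCBP-1 relative to the combination, in DMSO, A-485, GNE-781, both inhibitors and dCBP-1; points are the 3 libraries of each group and bars their means. TRIB1, DUSP5, DUSP4 and TENT5C lie nearer to DMSO than to dCBP-1 with the inhibitors and far below with dCBP-1, and CHAC1 is below DMSO with both inhibitors and above it with dCBP-1.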

How the data were processed

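RNA of MM.1S cells was made into QuantSeq 3′ libraries, per the labels' protocols. The authors deposited a signal: reads per gene, scaled by a single factor in each library. The submitters' processing notes name the build hg19. Aligner, counter, annotation, strand setting and the origin of the factors are not given in the sources used here. Every nonzero value was a whole number of reads within 0.01, so whole reads were recovered. Of 47459 gene rows, 45994 (96.9%) matched a symbol in the reference annotation. The others stayed in the test if they passed the level filter, though none was named. There were 0 rows of ERCC spike-in controls, so RNA per cell is unknown. Combination libraries name GNE-782 or GNE-783 in 1 label field and were taken as GNE-781 from the others.

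The 16104 genes that reached a value of 5 in 3 or more libraries were tested on log2(value + 1) with limma 3.58.1 in R 4.3.3, with 5 group means over all 15 libraries, a mean-variance trend and Benjamini-Hochberg adjustment, called at an adjusted p below 0.05. A ± after a log2 fold change is a standard error, after a level an SD (n = 3), and intervals are 95%. Fold changes on this scale understate the change of low genes. edgeR 4.0.16 and DESeq2 1.42.0 on recovered reads were alternatives, beside other scalings, pseudocounts and filters and libraries left out. Replicate pairs differed by more than sampling noise (chi-square per degree of freedom of 5.324 or more), so all libraries were counted. The labels do not say that replicates are separate cultures, so the p-values cover no more than the spread between these libraries, which may be technical. Replicate numbers did not pair the libraries (correlations of deviations of −0.181, 0.248 and 0.103 between same-numbered DMSO and dCBP-1 libraries). Genes named were the 15 largest changes each way among genes at or above the median level, called in both fits and with no overlap; the 8 most abundant changed genes each way; up to 4 of each list with the smallest p (a few are not reported here); the 6 largest differences each way from the combination; CREBBP and EP300; and others said to be chosen after their values were seen. The libraries, lists and rules were chosen with earlier results of these data known. Genes with near-identical copies (ribosomal protein, HSP70, histone, HLA and mitochondrial genes) have uncertain counts.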

Additional observations from a re-analysis of the deposited data

How the results depend on the processing

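The count of 6092 genes changed with dCBP-1 against DMSO was 3788 without DMSO replicates 1 and 2 together, and the rises went from 3105 to 1248 while the falls went from 2987 to 2540. Under the other settings the count stayed between 4982 and 6831: TMM scaling gave 6795, median-ratio 6736, quantile normalization 6785, pseudocounts of 0.25 and 5 gave 6036 and 6100, no filter 5312, a filter at 20 gave 5776, the 6 libraries alone 5073, edgeR 6612 and DESeq2 6831. Leaving out 1 library gave 4982 to 6457. Rises were 51.0% of the calls, and 50.9% to 56.1% under the other scalings. Against DMSO replicate 3 alone, leaving out 1 dCBP-1 library, a setting chosen after seeing the data, gave 3376 to 3466. Against the combination (993) leaving out 1 library gave 691 to 987. Against GNE-781 (1500) it gave 1033 to 1154, quantile normalization 2344 and the libraries compared alone 2396; the cause was not tested.

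With the replicate block the counts were 5792 against DMSO, 885 against the combination and 1286 against GNE-781. Of 201 named genes, 178 kept their call and direction for dCBP-1 against DMSO under every alternative run. They included all 49 of the largest, most abundant and combination-related genes. The largest and most abundant were named only if also called against DMSO replicate 3 alone, so keeping the call there was fixed by the choice. Members of lists were picked for the smallest p against DMSO, so they too were likely to keep a call by the choice. Differences from the combination were not part of this check. Over 3610 pairs of gene and alternative, 53 lost their call, 9 gained one and 0 changed sign; 17 of the losses came without DMSO replicates 1 and 2. EP300, TAP1, PSME1, CD14, CD247 and PDGFRB each lost their call when 1 library was left out, and B2M and MT-ND5 with no filter (adjusted p = 0.0507 and 0.0554 in limma). PSMB7, PSMD1, PSMB1 and SRSF11 lost it against DMSO replicate 3 alone. Genes of few reads in DMSO have rises that rest on counting error as well as on the spread between libraries.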
